A study of Arabidopsis thaliana with 4 samples.

Results

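The auxin response genes described here are the 29 Aux/IAA repressor genes and the 6 TIR1/AFB auxin receptor genes of Arabidopsis thaliana, 35 genes in all. The deposited table of KAN1 binding names 22970 genes. The members were taken by AGI identifier, and the regions of a member were those that list it as the left-hand, right-hand or overlapping gene. Of the 35 genes, 31 were named by at least 1 region, and together they were named by 109 of the 22103 regions on the 5 chromosomes. IAA10, IAA12, IAA32 and IAA34 were named by none. KAN1 ChIP libraries (2 replicates) came from Columbia-0 plants carrying 35S:FLAG-GR-KAN1, in which the 35S promoter drives a FLAG-tagged fusion of KAN1 with the glucocorticoid receptor in most cells of the plant, and the protein was precipitated with anti-FLAG beads. Control libraries (2) are labelled as input of the same ecotype, whereas the methods describe Col-0 wild-type chromatin and a single control library, so that the origin of the controls is uncertain. All 4 labels give 10 days in liquid culture and dexamethasone, the steroid that lets the fusion enter the nucleus, for 45 min. The transgene is expressed outside the abaxial cells where KAN1 normally acts, which limits it as a model of binding in those cells.

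Aux/IAA proteins are short-lived nuclear repressors that hold auxin response factors inactive by recruiting TOPLESS co-repressors. Auxin is sensed when it joins an Aux/IAA protein, through its domain II, to a TIR1/AFB F-box protein, the substrate receptor of an SCF ubiquitin ligase, and the repressor is then degraded. Many Aux/IAA genes are themselves rapidly induced by auxin. KAN1 is a GARP transcription factor that specifies abaxial identity in leaves and is known mainly as a repressor.

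For each region, the ChIP reads of each replicate were divided by the reads of both controls together, and a region whose mean of the 2 ratios is at least 3 is called enriched. Summed over all regions, the 2 ChIP libraries held 2084091 and 1037288 reads and the 2 controls 663580 and 13462, and control 2 was empty in 59 of the 109 regions of the members. Depth outside the regions is unknown. The ratios were not scaled for depth and share their denominator, and replicate 1 gave the higher ratio in 109 of 109 regions beside the members and in 97.9% of all regions. This general difference between the replicates, in which depth and yield cannot be told apart, is part of each SD, and the labels do not say whether these were separate cultures. Regions were called by the authors with the same contrast, so the ratios are given as a description with no p-value.

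KAN1 enrichment was found beside 16 of the 35 genes, 45.7% of the members and 51.6% of the 31 that are named. Among all genes the table names, the share was 25.4%. The 16 comprised 12 of 29 Aux/IAA genes (IAA2, IAA3, IAA4, IAA7, IAA9, IAA13, IAA16, IAA17, IAA18, IAA19, IAA27 and IAA29) and 4 of 6 receptor genes (TIR1, AFB2, AFB3 and AFB5). The median of the highest mean ratio per named gene was 3.11 for the members and 1.79 for all named genes. A ratio of at least 3 in both replicates was reached beside 5 members, IAA2, IAA9, IAA13, IAA16 and IAA18, all of them Aux/IAA genes, and the share among all named genes was 11.5%. Replicate 1 gave the higher ratio in every region of the members. ChIP replicate 2 alone is therefore the same call for them and gave the same 5, against 11.5% of all named genes. With replicate 1 alone 22 members were enriched, against 38.7%. At least 2 enriched regions lay beside 6 members (IAA2, IAA3, IAA7, IAA9, IAA17 and IAA18), against 8.62% of all named genes. IAA3 and IAA17 were counted from the same enriched regions, and IAA2 and IAA7 shared an enriched region, so these counts of genes are not independent.

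The number of regions per gene moved with these shares. Members were named by a median of 3 regions, against 2 for all named genes, and the median length of non-genic sequence on both sides of a member was 3217 bp, against 2150 bp for all named genes. Of the 15 members named by at least 4 regions, 11 had an enriched one, where the share of all such genes was 65.7%. Of the 16 members named by 1 to 3 regions, 5 had an enriched one, where the share of all such genes was 18.1%. The part of the number of regions in the difference from all genes was not tested.

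At the level of regions the excess was small. Of the 109 regions, 26 were enriched (23.9%), against 18.8% of all regions, and 9 reached a ratio of 3 in both replicates (8.26%), against 7.37% of all regions. The median mean ratio was 1.90 beside the members and 1.62 over all regions, and that of the enriched regions was 4.19 beside the members and 4.07 over all regions. Longer regions were enriched more often in both sets. Among regions of at least 300 bp, 20 of 40 beside the members were enriched, against 38.4% of all regions of that size. Among those under 300 bp it was 6 of 69 beside the members, against 8.1% of all regions. Regions beside Aux/IAA genes and beside receptor genes had similar medians, 1.90 over 91 regions and 2.02 over 18 regions.

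**Figure D1:**
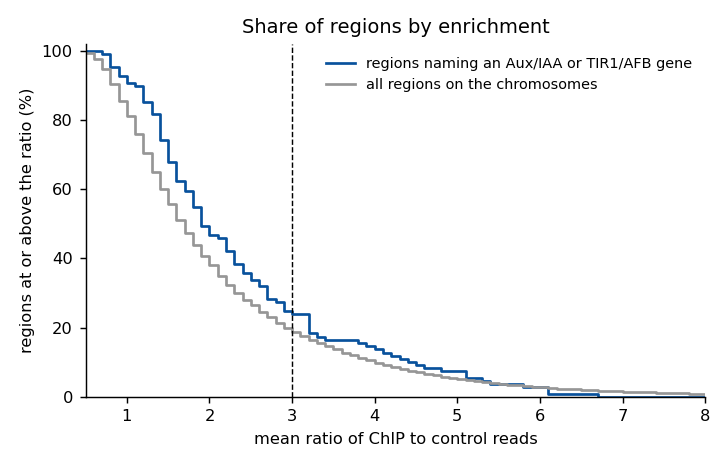
Share of regions (y axis, %) whose mean ratio of ChIP to control reads is at or above the value on the x axis, for the 109 regions naming an Aux/IAA or TIR1/AFB gene (blue) and for all 22103 regions on the chromosomes (grey). At the dashed line, a ratio of 3, the blue line stands at 23.9% and the grey line at 18.8%.

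The highest ratio of the family was found at IAA2 (AT3G23030), an early auxin-induced repressor of the IAA1/2/3/4 clade. The region chr3:8181724-8182220 (TAIR10) had 531 and 257 reads in KAN1 ChIP replicates 1 and 2, against 59 and 0 reads in controls 1 and 2. Both ChIP libraries lay far above the controls, with ratios of 9.0 (95% interval from counting error 6.87 to 12) and 4.36 (3.27 to 5.88) and a mean of 6.68 ± 3.28 (SD, n = 2), above 98.2% of all regions. Its midpoint lies 171 bp upstream of the gene in the deposited table and in an untranslated exon of the TAIR10.1 reference model. VGAATAW, the element that the paper found in these data, is GAATA preceded by A, C or G and followed by A or T. The region holds 3 sites of it. One of them lies outside the transcript and is shown here with the site in capitals, on the strand of the gene and therefore as the reverse complement of the element.
IAA2, chr3:8182096-8182180, minus strand: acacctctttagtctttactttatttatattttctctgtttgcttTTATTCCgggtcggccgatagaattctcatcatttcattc
The other two lie in untranslated sequence of the transcript, at chr3:8181970-8181976 on the minus strand and chr3:8182083-8182089 on the plus strand.

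IAA2 was the only member for which every named region was enriched, 5 of 5, all upstream and between 171 and 5070 bp away. After the first region, chr3:8182894-8183229 had 169 and 108 ChIP reads against 24 and 2 control reads (mean ratio 5.33 ± 1.66, SD, n = 2). Next came chr3:8184196-8184465 with 259 and 88 ChIP reads against 29 and 4 control reads (5.26 ± 3.66). Then chr3:8184614-8184965 had 232 and 110 ChIP reads against 32 and 2 control reads (5.03 ± 2.54). Both replicates exceeded 3 in the regions at 171, 1261 and 2989 bp, whereas replicate 2 stood at 2.67 in the region at 2530 bp. The most distant, chr3:8186709-8187033, had 150 and 67 ChIP reads against 24 and 0 control reads (4.52 ± 2.45) and is also assigned to IAA7. For the 3 regions farthest from IAA2, another annotated gene, AT3G23040, is closer than IAA2 or contains the midpoint.

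IAA7 (AT3G23050), known as AXR2, faces IAA2 across 12510 bp, with small annotated genes in between, and encodes a repressor whose stabilised form makes plants auxin resistant. It had the most regions of any member, 11, of which 4 were enriched. Its highest is the shared one just described, 7808 bp from IAA7. The downstream region chr3:8197645-8197960 had 175 and 72 ChIP reads against 31 and 0 control reads (mean ratio 3.98 ± 2.35, SD, n = 2). Upstream, chr3:8190424-8190658 had 92 and 50 ChIP reads against 19 and 0 control reads (3.74 ± 1.56), and chr3:8193082-8193458 had 136 and 75 against 33 and 1 (3.10 ± 1.27). Replicate 2 stayed under 3 in all 4 enriched regions of IAA7.

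The same head-to-head arrangement recurs at IAA3 and IAA17. IAA3 (AT1G04240), known as SHY2, acts in root meristem size and IAA17 (AT1G04250), known as AXR3, in root and shoot auxin response. Their starts are 6388 bp apart, and 3 of the 4 regions between them were enriched, each counted for both genes. The region nearest the middle, chr1:1132667-1133001, had 173 and 86 ChIP reads against 28 and 1 control reads, with ratios of 5.97 (4.01 to 9.17) and 2.97 (1.93 to 4.69) and a mean of 4.47 ± 2.12 (SD, n = 2). It lies 3282 bp upstream of IAA3 and 3424 bp upstream of IAA17, so its distance does not single out either gene. Its only VGAATAW site is shown in capitals on the plus strand.
IAA3/IAA17, chr1:1132752-1132848: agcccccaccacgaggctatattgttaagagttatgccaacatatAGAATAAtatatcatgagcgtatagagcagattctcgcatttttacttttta
The other enriched regions are closer to IAA17. At 1698 bp from it, chr1:1134312-1134808 had 383 and 161 ChIP reads against 61 and 4 control reads (4.18 ± 2.42) with its midpoint in a non-coding exon of AT1G04253 in the reference. At 671 bp, chr1:1135463-1135711 had 121 and 48 ChIP reads against 22 and 0 control reads (3.84 ± 2.35).

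The last such pair, IAA14 and IAA1, had no enriched region. IAA14 (AT4G14550), known as SLR, must be degraded for lateral roots to form, and IAA1 (AT4G14560) is an early auxin-induced gene. Across the 10732 bp between them, the 5 regions had mean ratios of 1.20 to 2.67. The highest value of either gene was 2.87 ± 1.32 at chr4:8347694-8348021, inside IAA14 in the deposited annotation, where ChIP replicates 1 and 2 had 179 and 91 reads and controls 1 and 2 had 45 and 2 reads. By midpoint, the 3 intervals between the gene starts held 6 enriched regions of 9 (IAA2/IAA7), 3 of 4 (IAA3/IAA17) and 0 of 5 (IAA14/IAA1), and 18.8% of all regions were enriched.

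**Figure D2:**
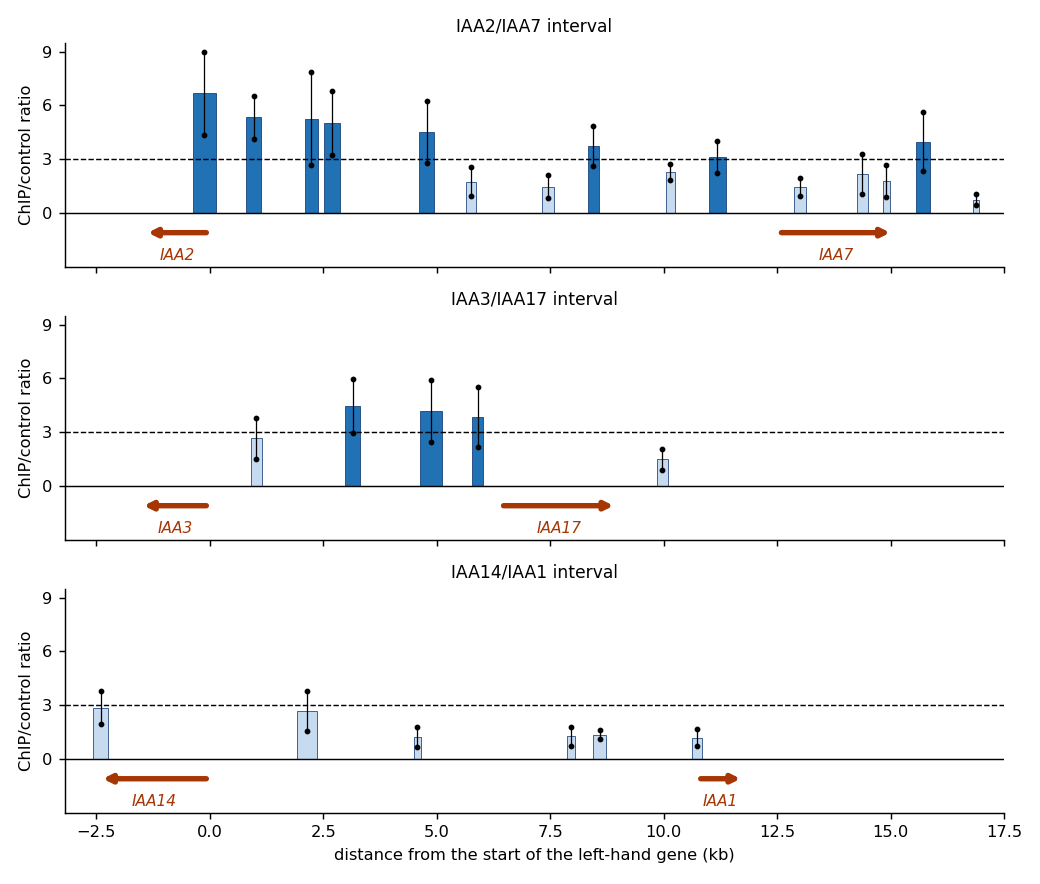
Regions around the 3 head-to-head Aux/IAA pairs, by distance from the start of the left-hand gene (x axis, kb) and ratio of ChIP to control reads (y axis). Bars show the mean ratio over the width of the region, dark where it is at least 3 (dashed line), black points the 2 ChIP replicates, and arrows the reference gene models. Dark bars crowd the IAA2 side of the first interval, where means run from 4.52 to 6.68, and none occurs in the IAA14/IAA1 interval.

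Of the other Aux/IAA genes with a ratio of at least 3 in both replicates, IAA16 (AT3G04730), a repressor of the IAA7/14/16/17 clade, and IAA9 had the same mean. For IAA16, the region chr3:1291081-1291407, 641 bp upstream, had 292 and 123 ChIP reads against 33 and 1 control reads, with ratios of 8.59 (6.01 to 12.6) and 3.62 (2.46 to 5.46) and a mean of 6.10 ± 3.51 (SD, n = 2). A neighbouring annotated gene, AT3G04732, is closer, at 372 bp. Of the 5 genes with both replicates at 3 or more, IAA16 was the one no longer counted when the authors' false discovery rate had to be 0.05 or less in each replicate. That limit left only 5 of the 26 enriched regions of the members, so the loss of a region was not particular to IAA16. No VGAATAW site was found in this region, but it holds 1 copy of TGTCGG, a word that auxin response factors can bind, in capitals on the strand of IAA16.
IAA16, chr3:1291252-1291347, minus strand: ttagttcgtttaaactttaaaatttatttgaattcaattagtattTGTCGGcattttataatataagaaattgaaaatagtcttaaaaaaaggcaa

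IAA9 (AT5G65670), whose tomato counterpart shapes leaves and fruit set, had 3 enriched regions, each with a ratio of at least 3 in both replicates. The highest, chr5:26247943-26248474, had 490 and 230 ChIP reads against 57 and 2 control reads, with ratios of 8.31 (6.33 to 11.1) and 3.90 (2.92 to 5.28) and a mean of 6.10 ± 3.12 (SD, n = 2). It lies 5449 bp upstream of IAA9 but 1829 bp upstream of AT5G65660. In the same interval, chr5:26249240-26249450 had 114 and 56 ChIP reads against 17 and 1 control reads (4.72 ± 2.28). Downstream by 1083 bp, chr5:26257356-26257747 had 229 and 103 ChIP reads against 33 and 0 control reads (5.03 ± 2.70), and AT5G65676 is closer. IAA9 was thus not the closest named gene for any of its enriched regions. The downstream region holds a single VGAATAW site, printed in capitals on the strand of IAA9.
IAA9, chr5:26257483-26257579: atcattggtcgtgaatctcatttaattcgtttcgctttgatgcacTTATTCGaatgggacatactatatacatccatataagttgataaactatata

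IAA13 (AT2G33310) is the close relative of IAA12 (BODENLOS), and both act with the response factor MONOPTEROS in the embryonic root. Its region chr2:14115887-14116251 was the only enriched one that overlaps a member in the deposited table, and the midpoint falls in the untranslated part of an exon, 20 bp inside the reference start. It had 228 and 128 ChIP reads against 31 and 0 control reads, with ratios of 7.35 (5.04 to 11.1) and 4.13 (2.77 to 6.33) and a mean of 5.74 ± 2.28 (SD, n = 2). Of the 4 genes of that clade, IAA10 and IAA12 were named by no region and IAA11 reached 2.10 ± 0.877. The site in the IAA13 region lies just upstream of the transcript and is in capitals on the strand of the gene.
IAA13, chr2:14116090-14116185, minus strand: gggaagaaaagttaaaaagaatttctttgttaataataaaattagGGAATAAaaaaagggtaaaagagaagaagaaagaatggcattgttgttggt

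IAA18 (AT1G51950), a repressor studied in embryonic and lateral root patterning, was enriched on both sides in the deposited annotation. The downstream region chr1:19307865-19308228, 536 bp beyond the gene, had 232 and 174 ChIP reads against 50 and 0 control reads, with ratios of 4.64 (3.41 to 6.43) and 3.48 (2.53 to 4.87) and a mean of 4.06 ± 0.82 (SD, n = 2). The replicates were closer here than in any other enriched region of the members, with 1.33 times as many reads in replicate 1 as in replicate 2, where the median over these 26 regions was 2.09. Upstream by 197 bp, chr1:19304980-19305255 had 150 and 59 ChIP reads against 32 and 1 control reads (3.17 ± 1.95). In the reference its midpoint lies 37 bp inside the start of IAA18, in an untranslated exon. The downstream region holds 3 VGAATAW sites, in capitals on the strand of IAA18, spread over most of its length.
IAA18, chr1:19307882-19308180: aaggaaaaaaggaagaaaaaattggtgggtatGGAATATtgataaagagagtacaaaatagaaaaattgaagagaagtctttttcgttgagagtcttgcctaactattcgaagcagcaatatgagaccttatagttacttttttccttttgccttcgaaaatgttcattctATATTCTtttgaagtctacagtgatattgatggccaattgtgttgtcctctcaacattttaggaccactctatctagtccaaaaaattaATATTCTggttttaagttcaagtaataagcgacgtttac

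IAA27, IAA29, IAA4 and IAA19 each had a single enriched region in which replicate 2 stayed under 3. IAA27 (AT4G29080), a canonical repressor of the IAA8/9/27 clade, had 327 and 156 ChIP reads against 54 and 2 control reads at chr4:14332771-14333145 (4.31 ± 2.16, SD, n = 2). That region lies 7629 bp from IAA27 and 570 bp from AT4G29090. For IAA29 (AT4G32280), known as a target of light-signalling factors, chr4:15582029-15582421 at 1162 bp upstream had 165 and 86 ChIP reads against 37 and 0 control reads (3.39 ± 1.51). IAA4 (AT5G43700), an early auxin-induced gene, had 221 and 113 ChIP reads against 51 and 2 control reads at chr5:17549950-17550405 (3.15 ± 1.44). In the deposited annotation the midpoint lay 55 bp upstream, the shortest distance of an enriched region placed outside its member. In the reference this region extends across the start of IAA4, with its midpoint 1 bp upstream. IAA19 (AT3G15540), known as MSG2 for its role in hypocotyl tropisms, had 201 and 98 ChIP reads against 44 and 4 control reads at chr3:5261780-5262174, 2047 bp upstream (3.11 ± 1.52). The last 3 means lie close to the threshold of 3. Their SDs hold the general difference between the replicates and do not measure how certain the call is. With the replicates scaled to the same total, IAA29, IAA4 and IAA19 had means of 3.42, 3.17 and 3.10. With 10 reads added the means were 2.88, 2.81 and 2.75, under the threshold.

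**Figure D3:**
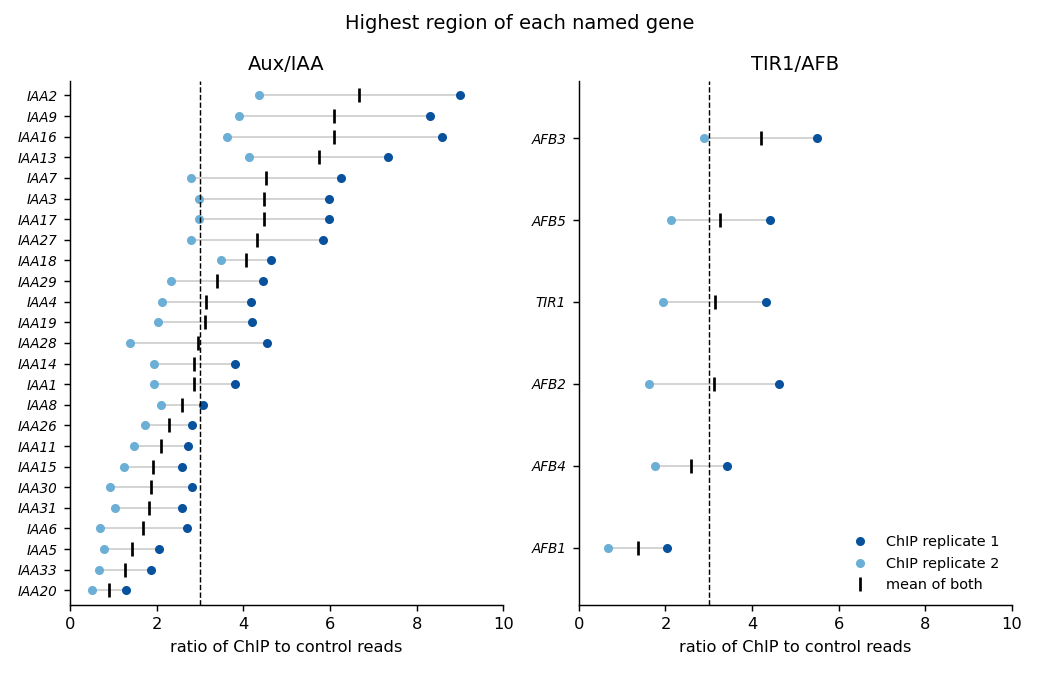
Ratio of ChIP to control reads (x axis) in the highest region of each of the 31 named genes, Aux/IAA genes left and TIR1/AFB genes right, in ChIP replicate 1 (dark blue), in replicate 2 (light blue) and as their mean (tick). Both replicates pass the dashed line at 3 for IAA2, IAA9, IAA16, IAA13 and IAA18 and for no receptor gene, and the means run from 0.893 at IAA20 to 6.68 at IAA2.

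Another 6 Aux/IAA genes had a highest mean ratio between 2 and 3. IAA28 (AT5G25890), a repressor of lateral root initiation, came nearest the threshold, with 59 and 18 ChIP reads against 12 and 1 control reads at 168 bp upstream (2.96 ± 2.23, SD, n = 2). Its replicates had ratios of 4.54 (2.46 to 9.02) and 1.38 (0.641 to 3.07), with counting intervals that overlap. Replicate 1 held 3.28 times as many reads as replicate 2, where the median over all regions was 2.03. IAA1 and IAA14 shared 2.87, from the region inside IAA14, which lies 13200 bp from IAA1. The regions to which IAA1 was the closest named gene had mean ratios of only 1.20 to 1.34. IAA8, a relative of IAA9 and IAA27, had 86 and 59 ChIP reads against 28 and 0 control reads in a region 2339 bp downstream (2.59 ± 0.682). IAA26, a relative of IAA18 that also binds a viral replicase, reached 2.28 ± 0.761, and IAA11 is given above. The 7 named Aux/IAA genes with no region above 2 were IAA15 (1.92), IAA30 (1.87), IAA31 (1.82), IAA6 (1.69), IAA5 (1.42), IAA33 (1.27) and IAA20 (0.893), each value being the highest mean ratio of the gene.

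Aux/IAA genes whose protein lacks a complete domain II, the part recognised by the receptors, had no enriched region. These are IAA20, IAA30, IAA31, IAA32, IAA33 and IAA34, a group formed with their values known. Of the 6, 4 were named at all, and their highest mean ratio was 1.87. Of the other 23 Aux/IAA genes, 21 were named and 12 had an enriched region, against 25.4% of all named genes. The 4 named genes that lack a complete domain II were named by only 1 to 3 regions each. Of all genes named by 1 to 3 regions, 18.1% had an enriched one, so a count of 0 among 4 is not far from that share. Values as low occurred outside the group, as at IAA5 (1.42) and IAA6 (1.69). With the reference annotation in place of the deposited one, IAA30 and IAA34 each gained an enriched region, so the count of 0 depends on how regions are assigned.

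Close relatives within the Aux/IAA family did not share one level. In the IAA1/2/3/4 clade 3 of 4 genes were enriched, with IAA1 at 2.87, in a region 13200 bp away, and IAA2 at 6.68. In the IAA7/14/16/17 clade it was again 3 of 4, with IAA14 at 2.87 and IAA16 at 6.10. The IAA8/9/27 clade had 2 of 3, and the IAA18/26/28 and IAA5/6/19 clades each had 1 of 3. The IAA10/11/12/13 clade had 1 of 4, of which only 2 were named by a region. Among all named genes the share was 25.4%. The SDs of the highest regions ranged from 0.556 to 3.51 (n = 2), and neighbouring Aux/IAA genes in the order of means differed by less than the SD of either. Each SD holds the general difference between the replicates, which all genes share, so it does not measure how certain this order is.

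Among the receptors, AFB3 (AT1G12820), an auxin receptor acting in root responses to nitrate, had the highest ratio. The region chr1:4373149-4373647, 2104 bp upstream, had 319 and 168 ChIP reads against 58 and 0 control reads, with ratios of 5.50 (4.15 to 7.41) and 2.90 (2.14 to 3.97) and a mean of 4.20 ± 1.84 (SD, n = 2). AT1G12830 ends 852 bp from the midpoint and is closer. The region holds 2 VGAATAW sites, in capitals on the strand of AFB3, of which the first is in reverse orientation.
AFB3, chr1:4373519-4373672, minus strand: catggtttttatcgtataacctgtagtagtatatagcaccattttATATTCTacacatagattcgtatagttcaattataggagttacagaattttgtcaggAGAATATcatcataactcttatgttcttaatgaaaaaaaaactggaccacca

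AFB5 (AT5G49980), the receptor most sensitive to picloram-type auxins, was enriched downstream at chr5:20333303-20333796, with 296 and 142 ChIP reads against 65 and 2 control reads (3.27 ± 1.63, SD, n = 2). The convergent gene AT5G49970 ends 394 bp away and AFB5 414 bp away. Its 2 upstream regions had mean ratios of 0.783 and 0.819, without enrichment. The site in the downstream region is given in capitals on the strand of AFB5.
AFB5, chr5:20333414-20333510, minus strand: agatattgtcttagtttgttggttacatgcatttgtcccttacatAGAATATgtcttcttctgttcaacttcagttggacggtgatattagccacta

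TIR1 (AT3G62980), the founding receptor of the family, had 264 and 119 ChIP reads against 57 and 4 control reads at chr3:23281450-23281867 (3.14 ± 1.68, SD, n = 2). This region lies 5283 bp upstream of TIR1 and 249 bp from AT3G62988, and the 3 regions nearer TIR1 had mean ratios of 1.57 to 2.41. AFB2 (AT3G26810), the closest relative of AFB3, had 111 and 39 ChIP reads against 21 and 3 control reads at chr3:9865974-9866195, 1760 bp upstream (3.12 ± 2.12). Among the enriched receptors its replicates differed most, with ratios of 4.62 (2.95 to 7.52) and 1.62 (0.953 to 2.82), and with the ChIP replicates scaled to the same total the mean fell to 2.95, under the threshold. It was the only enriched region of the members in which the counting interval of replicate 2 reached below 1. AFB4 (AT4G24390), the partner of AFB5, stayed at 2.59 ± 1.19 with 151 and 77 ChIP reads against 43 and 1 control reads, 816 bp upstream. AFB1 (AT4G03190), the partner of TIR1, had 51 and 17 ChIP reads against 25 and 0 control reads (1.36 ± 0.962). In each of the receptor pairs TIR1/AFB1 and AFB4/AFB5, 1 gene passed the threshold, and in AFB2/AFB3 both did. Among the 4 enriched receptors, only AFB2 was the closest named gene to its enriched region.

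**Figure D4:**
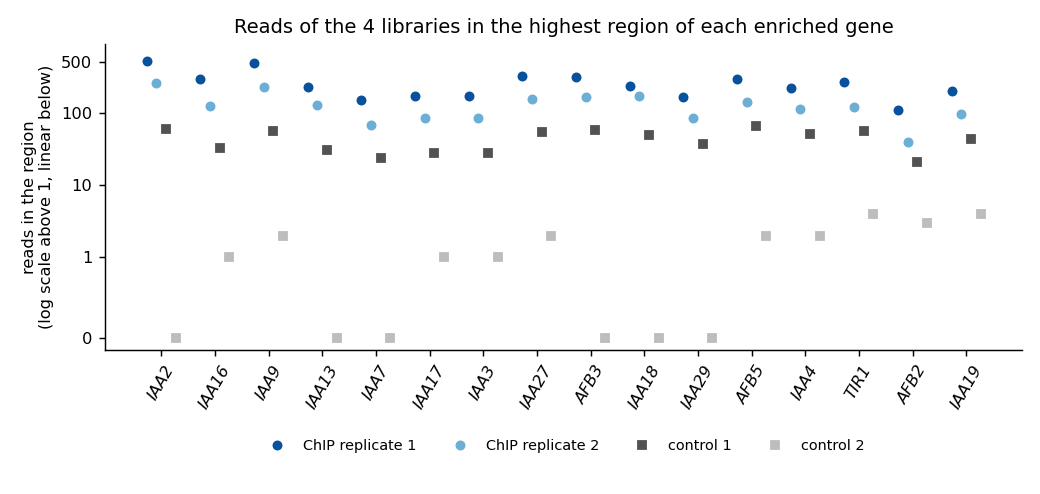
Reads (y axis, log scale above 1 and linear below) of the 2 KAN1 ChIP libraries (blue) and the 2 control libraries (grey squares) in the highest region of each of the 16 enriched genes, ordered by mean ratio. ChIP replicate 1 is highest in each of them, from 111 reads at AFB2 to 531 at IAA2, and control 2 has at most 4 reads.

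Most enriched regions were upstream and many were far from the member. Counting a region once for each member it names, 25 of 30 enriched cases were upstream, 4 downstream and 1 inside, against 59.5% upstream, 34.5% downstream and 5.64% inside for the enriched regions of all genes. Regions of any ratio were already upstream in 89 of 120 cases for the members, against 52.1% for all genes. Of the 30 cases, 5 were upstream within 1 kb, against 21.7% for all genes, and 11 lay beyond 3 kb (36.7%, against 22.7% for all genes). The member was the closest named gene in 13 of the 30 cases, and another gene was closer in 17. Each of these regions names other genes as well, and the share over all genes was not determined. With only regions overlapping a gene or within 3 kb of it, IAA3, IAA27 and TIR1 lost their enriched regions and 13 members remained, against 22.2% of all named genes. By the reference annotation, 22 of the 26 enriched regions had an intergenic midpoint, 4 lay in an untranslated or non-coding exon, and none was centred on coding sequence or an intron. For these positions too, the shares over all enriched regions were not determined.

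**Figure D5:**
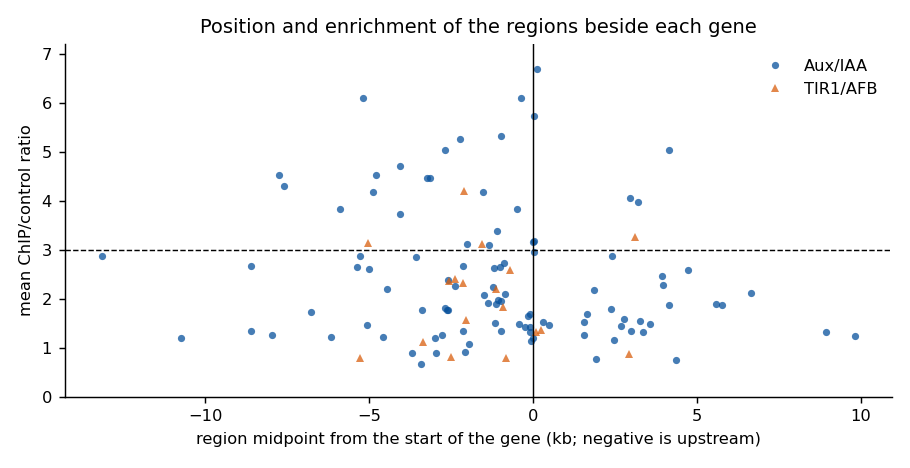
Mean ratio of ChIP to control reads (y axis) of the 120 region and gene combinations, by the distance of the region midpoint from the reference start of the gene (x axis, kb, negative upstream), for Aux/IAA (circles) and TIR1/AFB genes (triangles). Points above the dashed line at 3 spread from close to the start to beyond 7 kb upstream, with 4 cases downstream of the gene.

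The VGAATAW element was searched on both strands, with overlapping matches allowed, in the reference sequence under each region. It was found in 17 of the 26 enriched regions of the members (65.4%, exact 95% interval 44.3 to 82.8%) and in 69.8% of all enriched regions. In the regions below the threshold it was present in 30 of 83 beside the members (36.1%) and in 42.6% of all, and over regions of any ratio in 43.1% beside the members and 47.7% of all. The share over all enriched regions lies within the interval of that of the members. The 17 regions held 23 sites, of which 15 lay within 100 bp of the midpoint of their region. The 26 enriched regions had a median size of 364 bp, much of which lies that close to the midpoint. The share over all enriched regions was not determined, so no centring of the sites is read from this count. The most frequent form was AGAATAT with 8 sites, followed by GGAATAA with 5. In the highest regions of IAA7, IAA9, IAA16, IAA27, TIR1 and AFB2, no site was found in the window searched. The density of sites was 2.42 per kb in the enriched regions of the members and 3.36 per kb in all enriched regions. In the regions below the threshold it was 1.88 per kb beside the members and 2.46 per kb over all. Enriched regions were also longer, with a median of 354 bp against 250 bp over all regions, which the shares do not take into account. A looser form, GNATA followed by A or T, was found in 24 of the 26 (92.3%), against 95.2% of all enriched regions and 80.6% of all regions, so it separates them little.

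A list of 14 further genes of receptor function and repression was examined beside the members, comprising 9 genes for SCF subunits, cullin modification and a cofactor and the 5 TOPLESS co-repressor genes. Of the 14, 10 were named and 5 had an enriched region, and 25.4% of all named genes had one. Among the co-repressors, which Aux/IAA proteins recruit, it was 3 of 5. TPL (AT1G15750) had 494 and 329 ChIP reads against 55 and 0 control reads at chr1:5421475-5422047, 727 bp upstream (7.48 ± 2.12, SD, n = 2), a mean above that of any Aux/IAA or receptor gene. TPR3 (AT5G27030) had 263 and 117 ChIP reads against 28 and 0 control reads (6.79 ± 3.69), and TPR1 (AT1G80490) had 87 and 47 against 19 and 1 (3.35 ± 1.41). Of the other 9 genes, 2 passed, ECR1 (3.26 ± 1.56), which helps activate the ubiquitin-like modifier of cullin, and SKP1B (3.19 ± 2.17), an adaptor subunit of the ligase. CUL1 and RBX1, the scaffold and the catalytic partner of the SCF complex, were not named by any region.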

How the data were processed

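The authors mapped the reads to TAIR10, heuristically reduced duplicate reads, called regions against the control and deposited estimated counts of reads per region and library, unscaled. Aligner and caller versions are not given in the sources used here. The deposited table also holds, per region, the false discovery rate of each replicate as an adjusted p-value, the log2 of a rank product, a rank score, and other values in bp for size and distance to the nearest genes. The rate served in 1 alternative only, and the log2 and score columns were not used. Every column of sample values was assigned to a library.

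Ratios of ChIP reads to the sum of both controls were computed per replicate, since control 2 was nearly empty, and exact (Clopper-Pearson) 95% intervals cover counting error only. The families, the further gene list, the threshold and the control were chosen with earlier results of these data known. Every member was accounted for, those with a region of at least 3 by the reads of their highest region. Sequences and gene models came from the TAIR10.1 reference of RefSeq, and the first 20 bases of 347 of 347 transcripts with TAIR10 coordinates matched it. The strand of the deposited gene differed from the reference in 0 of 120 combinations of region and member. Steps were run in Python 3.11.15 with numpy 2.4.6, pandas 2.3.3, scipy 1.17.1 and matplotlib 3.10.9 and were tested on simulated data. Other thresholds, controls, a pseudocount of 10 reads, depth scaling, single replicates, gene assignments and motifs were tried as alternatives.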

Additional observations from a re-analysis of the deposited data

How the results depend on the processing

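No paired analysis was possible because the results come from no test. The ratio to the same-numbered control was computed as one of the alternatives. The values as reported were 16 members (12 Aux/IAA, 4 receptors), 25.4% of all named genes, 26 regions (23.9%) and 18.8% of all regions. A threshold of 2 gave 23 members, 44.6% of genes, 51 regions (46.8%) and 38% of all regions, and a threshold of 4 gave 10 members, 1 of them a receptor, 14.8% of genes, 15 regions (13.8%) and 9.9% of all regions. Requiring 3 in both replicates gave 5 members (5 Aux/IAA, 0 receptors), 11.5% of genes, 9 regions (8.26%) and 7.37% of all regions. Keeping the mean of at least 3 and asking for the authors' false discovery rate to be 0.05 or less in each replicate gave 5 members (4 Aux/IAA, 1 receptor), 9.73% of genes, 5 regions (4.59%) and 5.61% of all regions, the one setting in which the share of regions beside the members fell below that of all regions. With 10 reads added it was 10 members, 1 of them a receptor, 18.6% of genes, and 16 regions (14.7%), against 12.8% of all regions. The mean of the controls as denominator gave 27 members (22 Aux/IAA), 60.5% of genes, 74 regions (67.9%), 55.8% of all regions and a median ratio of 3.79 beside the members. The same-numbered control with 1 read added called nearly everything, with 31 members (25 Aux/IAA), 98.9% of genes, 109 regions (100%), 98.6% of all regions and a median ratio of 14.3. Leaving out ChIP replicate 1 or 2 gave 5 or 22 members, 5 or 17 Aux/IAA genes, 0 or 5 receptors, 11.5 or 38.7% of genes, 9 or 46 regions, 8.26 or 42.2% of the regions beside the members, 7.37 or 31.8% of all regions, and a median ratio of 1.21 or 2.71. With control 1 alone 19 members were counted (26.5% of genes), with replicates scaled to the same total 15 (25.4%), and with the reference annotation 18 (25.1%). The looser motif was in 92.3% of the enriched regions of the members, against 65.4% for VGAATAW, because it accepts more letters. Of the 15 highest regions of the enriched members, 5 stayed at or above 3 without ChIP replicate 1, 9 with 10 reads added and 14 with scaled replicates, and all 15 moved by more than 1 SD with the mean of the controls or the same-numbered control. IAA2, IAA9, IAA13 and IAA18 had an enriched region in all of the settings of thresholds, controls, replicates and assignment tried. For the members, requiring 3 in both replicates and leaving out ChIP replicate 1 are the same call and do not count as separate settings. The few reads of control 2, of which 59 of the 109 regions had none, limit what its use alone can show.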

Other observations

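Words bound by auxin response factors, TGTCTC and TGTCGG, were searched on both strands, a search added after the table had been seen. At least 1 of them was found in 13 of the 26 enriched regions beside Aux/IAA and TIR1/AFB genes (50.0%), against 27.1% of all enriched regions and 20.4% of all regions. In the regions of the members under the threshold it was found in 22 of 83 (26.5%), against 18.9% of all such regions, and the density was 1.58 per kb in the enriched and 1.37 per kb in the other regions of the members, against 0.922 per kb in all enriched regions and 0.895 per kb in all others. By density the enriched regions of the members were thus close to their other regions, which are shorter. Both a VGAATAW site and such a word occurred in 9 of the 26 enriched regions, among them those of IAA2, IAA13 and AFB3, and 5 held neither. A match is a run of letters only, and many Aux/IAA promoters are known auxin targets.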
